A study of Mus musculus with 18 samples.

Results

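The genes of the respiratory chain in bone marrow-derived macrophages are described here, for 2 sets of genes that reside in different genomes. Rows of the count table were taken as nuclear members where the gene symbol began with Ndufa, Ndufb, Ndufc, Ndufs, Ndufv, Uqcr, Cox4 to Cox8 or Atp5 or was Sdha, Sdhb, Sdhc or Sdhd, and as mitochondrial members where it began with mt-Nd, mt-Co, mt-Cytb or mt-Atp, with at least 10 counts over all libraries. Of 31053 genes listed, 106 matched and 99 were members, 86 of them nuclear and 13 mitochondrial. The macrophages came from 12-week-old mice of 2 genotypes, Slc7a7-/- mice, which lack this amino acid transporter in myeloid cells through LysM-Cre, and Slc7a7+/+ mice. LysM-Cre is expressed from the Lyz2 locus, so that deletion is limited to the cells of the myeloid lineage and can be incomplete. Cells of each of 3 mice per genotype were kept for 24 h in Control medium with vehicle, with 50 µg/mL of acetylated LDL (AcLDL) or with 100 µg/mL of oxidized LDL (OxLDL), which gave 6 groups of 3 libraries. For each library, 100000 cells were seeded, and the 3 treatments of a genotype share their mice.

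The respiratory chain of the inner mitochondrial membrane passes electrons from NADH and succinate to oxygen through complexes I to IV, and complex V, the ATP synthase, uses the resulting proton gradient to make ATP. Complexes I, III, IV and V are mosaics of subunits from the nucleus and from mitochondrial DNA, whereas complex II is wholly nuclear. Mitochondrial genes are transcribed as long polycistronic RNAs, which are then cut, so that their messengers share their transcription, while each nuclear subunit has its own promoter. In macrophages, the balance of oxidative phosphorylation and glycolysis is known to shift with activation.

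The nuclear members comprised 76 subunits, 8 assembly factors of complex I (Ndufaf1 to Ndufaf8), Cox7a2l and Atp5s. Of all members, 98 passed the filter on low counts and were tested, 85 nuclear and 13 mitochondrial. Cox6a2, with 10 counts in all, was the member not tested. The 7 matching genes under 10 counts were Cox4i2, Cox8b, Cox8c and Ndufa4l2 with 0 counts, Cox7b2 with 3, Cox6b2 with 7 and an additional gene identifier named Atp5o with 8.1.

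Library totals were 1043492 to 1768816 counts, so that 3 counts corresponded to 1.67 to 2.85 CPM (counts scaled to library size with TMM factors). Slc7a7 was at 11.1 to 29.3 CPM in Slc7a7+/+ and at 2.22 to 10.9 CPM in Slc7a7-/- libraries, and the genotypes did not overlap within any treatment. All 7 macrophage markers were detected in each of the 18 libraries, with a summed level from 12338 CPM in Slc7a7-/- with OxLDL to 35640 CPM in Slc7a7+/+ with AcLDL. This list includes Lyz2, the locus of the Cre. The 6 neutrophil markers summed to 23.9 to 248 CPM, the 5 dendritic markers to at most 11.5 CPM and the 5 stromal markers to at most 26.9 CPM. Of 5 lymphoid markers, Cd79a, Nkg7 and Ms4a1 were at 0 in all libraries, and so was Hba-a2 of the 5 erythroid markers. In each treatment the macrophage sum was lower in Slc7a7-/- libraries, without overlap.

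The 3 libraries of Slc7a7+/+ mouse 1 stood apart in the genes described here. In all 3 treatments, 53 of 85 nuclear members (62.4%) were highest in this mouse among the Slc7a7+/+ mice, against 12.3% of all genes tested, and 1 of 13 mitochondrial members was. These libraries had the lowest totals of the series, and their neutrophil marker sums, 123 to 248 CPM, overlapped those of the other libraries (23.9 to 182 CPM) but reached higher. Comparisons that include Slc7a7+/+ libraries are given with and without this mouse.

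The mitochondrial genes lie close together and partly overlap. The end of mt-Atp8 and the start of mt-Atp6, both subunits of the membrane part of the ATP synthase, share 43 bases (mouse mitochondrial DNA, GRCm38, 7927 to 7969, plus strand), and mt-Nd4l and mt-Nd4, both core subunits of complex I, share 7 bases (10167 to 10173). The sequences are shown with the shared bases in capitals. A read that lies wholly within them, or crosses them into both genes, cannot be assigned to a single gene of the pair. Reads that reach beyond them into only a single gene can be, and how many there were of each kind was not counted.
mt-Atp8 and mt-Atp6: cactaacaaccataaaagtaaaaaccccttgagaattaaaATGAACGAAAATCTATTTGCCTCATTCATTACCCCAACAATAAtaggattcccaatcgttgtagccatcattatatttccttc
mt-Nd4l and mt-Nd4: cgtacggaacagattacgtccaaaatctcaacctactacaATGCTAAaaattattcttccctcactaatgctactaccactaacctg
Besides, mt-Nd6 alone among the 13 lies on the opposite strand, and since the strand setting of the counting is not stated, its reads and those of RNA from the other strand cannot be told apart.

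The nuclear members were described by their promoters. For 73 of 86 a RefSeq window (250 bases before to 50 after the start, GRCm38.p6) was found, 78 windows in all. The core of the NRF1 motif, the best known regulator site of nuclear respiratory genes, was present on either strand in 25.6% of these windows and in 4.6% of all 32851 windows. The ETS core CCGGAAG, bound by GABPA (NRF2), was found in 23.1% and in 8.9%, the YY1 core AAGATGGC in 14.1% and 2.7%, and the ERR site TCAAGGTCA in 2.6% and 0.4%. No overlap among these motifs was excluded. The windows of Atp5k, Atp5o and Ndufv3 are printed, as genes whose OxLDL response in Slc7a7-/- cells is described further on, and that of Sdha because it held 3 NRF1 cores. Capitals mark matches to these motifs on either strand.
Atp5k (chr5:108434350-108434649, minus strand, NRF1 and ETS cores): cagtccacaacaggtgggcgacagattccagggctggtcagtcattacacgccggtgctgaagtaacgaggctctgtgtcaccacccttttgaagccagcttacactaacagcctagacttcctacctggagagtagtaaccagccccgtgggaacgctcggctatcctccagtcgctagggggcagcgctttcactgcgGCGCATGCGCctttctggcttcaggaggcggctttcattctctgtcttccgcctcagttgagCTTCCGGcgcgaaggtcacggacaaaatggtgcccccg
Atp5o (chr16:91931581-91931880, minus strand, NRF1 core): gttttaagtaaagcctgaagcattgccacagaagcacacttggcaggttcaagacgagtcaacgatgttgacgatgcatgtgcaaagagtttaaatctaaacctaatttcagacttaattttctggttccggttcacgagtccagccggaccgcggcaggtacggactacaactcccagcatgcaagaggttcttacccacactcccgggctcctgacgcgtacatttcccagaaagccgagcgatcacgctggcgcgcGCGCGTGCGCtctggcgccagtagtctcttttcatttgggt
Ndufv3 (chr17:31519865-31520164, plus strand, none of the motifs): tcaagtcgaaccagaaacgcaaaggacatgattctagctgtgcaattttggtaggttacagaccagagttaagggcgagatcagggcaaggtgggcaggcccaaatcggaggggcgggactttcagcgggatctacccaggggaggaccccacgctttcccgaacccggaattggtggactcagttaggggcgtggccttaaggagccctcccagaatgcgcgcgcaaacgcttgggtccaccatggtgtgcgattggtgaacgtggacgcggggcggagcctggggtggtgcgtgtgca
Sdha (chr13:74350191-74350490, minus strand, 3 NRF1 cores): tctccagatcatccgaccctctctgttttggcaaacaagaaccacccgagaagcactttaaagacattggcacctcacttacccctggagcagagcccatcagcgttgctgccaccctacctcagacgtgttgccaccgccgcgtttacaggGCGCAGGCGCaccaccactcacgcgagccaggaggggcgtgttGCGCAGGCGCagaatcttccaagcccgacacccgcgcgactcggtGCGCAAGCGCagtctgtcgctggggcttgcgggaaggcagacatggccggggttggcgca

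Per length, every mitochondrial member was at a higher level than every nuclear member. With CPM divided by the length in kb of the longest principal coding transcript (APPRIS tag, GENCODE M21), mitochondrial members had mean levels from 543 ± 56.5 CPM per kb (SD, n = 18 libraries) for mt-Nd6 to 4274 ± 488 for mt-Co1, the catalytic core of cytochrome c oxidase. The highest nuclear member, Cox4i1, a subunit of the same complex, had 333 ± 50.4 CPM per kb. Within the mitochondrial genome the subunits of complexes IV and V led, with mt-Atp6 at 3416 ± 408 CPM per kb, followed by mt-Co3, mt-Co2 and mt-Atp8 (1899 ± 280). For mt-Cytb of complex III the level was 1625 ± 201, and the 7 complex I genes followed from mt-Nd1 (1387 ± 205) down to mt-Nd6. Neighbours in this order differed by less than their spread in several cases, as for mt-Nd3 (837) and mt-Nd4l (829) or for mt-Nd2 (551) and mt-Nd6.

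By counts, mt-Co1 accounted for 31.3% of all mitochondrial member counts (29.7 to 32.9% over the libraries). It was followed by mt-Atp6 and mt-Co3, the latter with 10.7%, whereas mt-Nd4l contributed 1.17%. For 7 of the mitochondrial genes, 62.8% or more of the 31-base words of the transcript also occur elsewhere in the annotation, most of them in pseudogenes that the table does not list, with 100% for mt-Co2, 99.9% for mt-Co3 and 99.5% for mt-Atp6. The counts of these genes therefore rest on how such reads were assigned.

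Among nuclear subunits, each complex had a wide range. In complex I, Ndufb8 was highest (141 ± 33.4 CPM per kb) and Ndufb2 lowest (5.71 ± 1.15), both accessory subunits of the membrane arm. In complex II, Sdhb, the iron-sulfur subunit, had 66.2 ± 13.2 and Sdhc, a membrane anchor, 25.2 ± 3.98. For complex III, Uqcrb reached 152 ± 34.2 and the core protein Uqcrc2 31.7 ± 5.08. In complex IV, levels extended from Cox4i1 down to Cox7a1 (4.93 ± 2.72), and in complex V from Atp5h (253 ± 43.7), a subunit of the peripheral stalk, to Atp5g1 (5.78 ± 1.72), 1 of 3 genes for the c-ring. For Ndufb2 and Atp5g1 these transcripts have 4371 and 4715 bases, and it was not tested whether these are the ones expressed.

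Of the tissue isoform pairs of complex IV, the ubiquitous form prevailed in each. Cox4i1 was at 196 to 352 CPM in the 18 libraries, and Cox4i2, the form of lung and hypoxic cells, had 0 counts in all of them. Cox6a1 was at 46.3 to 89.3 CPM, and Cox6a2, its heart and muscle counterpart, had 10 counts in total. Per length, Cox7a2 (53.6 ± 12.8 CPM per kb) exceeded the muscle form Cox7a1 (4.93 ± 2.72). For Cox6b1 the range was 31.2 to 69.0 CPM beside 7 counts of the testis form Cox6b2, and for Cox8a 41.7 to 96.8 CPM beside 0 counts of Cox8b. Ndufa4, now assigned to complex IV, was at 14.2 to 36.2 CPM, while Ndufa4l2, which is induced by hypoxia, had 0 counts. A count of 0 allows a level up to that of 3 counts, 1.67 to 2.85 CPM in a single library.

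**Figure D1:**
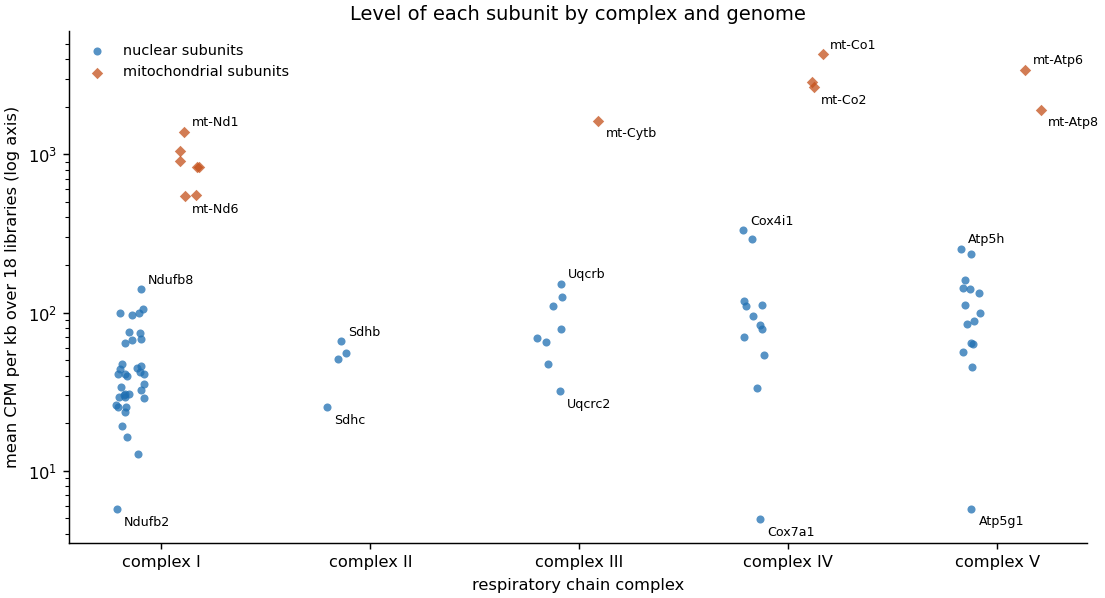
Mean level of each subunit over the 18 libraries (CPM per kb of the longest principal transcript, log axis) by complex, with nuclear subunits as circles and mitochondrial subunits as diamonds and the highest and lowest of each named. The lowest mitochondrial subunit, mt-Nd6 (543 CPM per kb), lies above the highest nuclear subunit, Cox4i1 (333 CPM per kb).

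The 13 mitochondrial members took 1.69 to 2.61% of the counts of a library and the 86 nuclear members 0.445 to 0.739%. In Slc7a7+/+ libraries, the mitochondrial share was 2.03 ± 0.301% (SD, n = 3) in Control medium, 1.90 ± 0.194% with AcLDL and 2.14 ± 0.363% with OxLDL. Slc7a7-/- libraries had 2.13 ± 0.164%, 2.12 ± 0.215% and 2.35 ± 0.247%, and the groups overlapped, except that Slc7a7+/+ with AcLDL (up to 2.07%) lay below Slc7a7-/- with OxLDL (from 2.12%). The nuclear share of Slc7a7+/+ libraries was 0.590 ± 0.102% in Control medium, 0.580 ± 0.0846% with AcLDL and 0.578 ± 0.149% with OxLDL. In Slc7a7-/- cells it was 0.556 ± 0.0304%, 0.523 ± 0.00143% and 0.497 ± 0.0202%, in the same order, and each of the 3 mice had less with OxLDL than in Control medium. These are bulk libraries, in which fewer cells of a type and less RNA per cell cannot be told apart.

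The ratio of the 2 sums, which no scaling of the libraries changes, was as follows. Within Slc7a7+/+ mice, the log2 ratio of mitochondrial to nuclear counts in Control medium, with AcLDL and with OxLDL was 1.62, 1.51 and 1.38 in mouse 1. It was 2.10, 2.001 and 2.52 in mouse 2, and 1.65, 1.62 and 1.81 in mouse 3. In Slc7a7-/- mice, the same values were 1.88, 2.16 and 2.03 in mouse 1, then 1.84, 1.87 and 2.43 in mouse 2, and 2.10, 2.02 and 2.25 in mouse 3. From Control medium to OxLDL the ratio was higher in 5 of 6 mice, by 0.14 to 0.59, and lower by 0.24 in Slc7a7+/+ mouse 1. Set against AcLDL, it was higher with OxLDL in mice 2 and 3 of either genotype and lower in mouse 1 of either. Group means with OxLDL were 1.90 ± 0.578 in Slc7a7+/+ and 2.23 ± 0.201 in Slc7a7-/- cells (SD, n = 3) and overlapped.

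**Figure D2:**
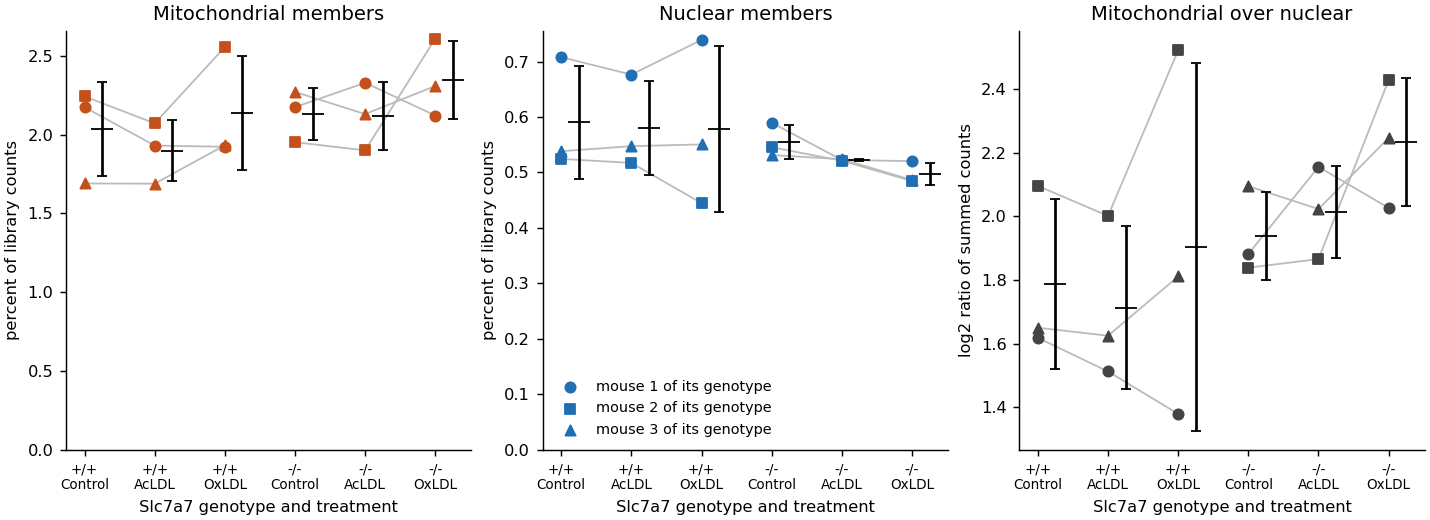
Percent of library counts in mitochondrial members (left) and nuclear members (middle) and the log2 ratio of both sums (right) for each library by Slc7a7 genotype and treatment, with lines joining the libraries of a mouse and bars showing mean and SD (n = 3). Slc7a7+/+ mouse 1 has the 3 highest nuclear shares (0.677 to 0.739%), and the OxLDL libraries of mouse 2 have the highest ratios, 2.52 and 2.43.

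Libraries of Slc7a7+/+ mice deviated from their group means, in ways that differed between mice. Of the 71 nuclear members averaging 20 CPM or more, 63, 66 and 68 were above their group mean in the Control, AcLDL and OxLDL libraries of Slc7a7+/+ mouse 1, and their median deviation was 0.24, 0.24 and 0.41 on the log2 scale, while that of its mitochondrial members was 0.12, 0.03 and -0.10. The libraries of Slc7a7+/+ mouse 2 had median deviations of -0.17, -0.19 and -0.36 for the same genes, while its mitochondrial members were above the group mean by 0.16, 0.12 and 0.26. In mouse 3, both genomes lay below the mean in each treatment, with -0.09, -0.03 and -0.05 for nuclear and -0.24, -0.17 and -0.14 for mitochondrial members. Slc7a7-/- libraries stayed within -0.08 to 0.12 for nuclear members and -0.15 to 0.16 for mitochondrial members.

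**Figure D3:**
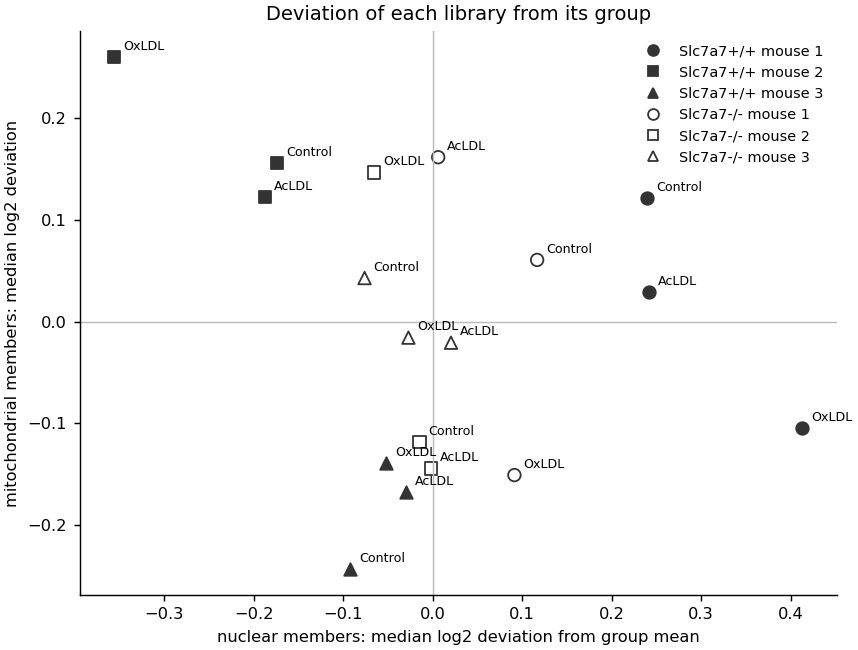
Median log2 deviation of the mitochondrial members of a library from their group mean against that of the nuclear members with at least 20 CPM, for 18 libraries, with filled symbols for Slc7a7+/+ and open symbols for Slc7a7-/- and a shape for each mouse. The Slc7a7+/+ libraries spread from -0.36 to 0.41 on the nuclear axis, with mouse 1 at the right and mouse 2 at the left.

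In the fit of the 6 groups, which does not use the pairing by mouse, no respiratory chain gene of either genome passed the test in any of the 11 comparisons (edgeR quasi-likelihood test, Benjamini-Hochberg adjusted p under 0.05 over 12290 genes). DESeq2, also without the pairing, called 0 of them. The share of all genes called was 0.472% for AcLDL against Control and 1.34% for OxLDL against Control in Slc7a7+/+ cells, 0.521% and 2.32% for the same comparisons in Slc7a7-/- cells, and 0.00814% and 0.0651% for OxLDL against AcLDL in the respective genotypes. Between genotypes it was 0.00814% in Control medium, 0.0163% with AcLDL and 0.00814% with OxLDL, and for the genotype difference in the response it was 0 for AcLDL and 0 for OxLDL. The 95% intervals of all 13 mitochondrial members lay within 1 log2 unit of no change in every comparison, whereas those of the nuclear members did so for 53 to 77 of 85. With mouse as a block, 5 of 85 nuclear members were called for OxLDL against Control in Slc7a7-/- cells, a smaller share than the 7.18% of all genes. No member was called in the other comparisons within a genotype or for the genotype difference in the response. Between genotypes no mouse is shared, so the block was the replicate number there, and no member was called.

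With OxLDL in Slc7a7-/- macrophages, 73 of 85 nuclear members had a log2 fold change below 0, with a median of -0.21 against 0.00 over all genes tested, and all 13 mitochondrial members had one above 0, with a median of 0.07. At an unadjusted p under 0.05 stood 10 nuclear members with lower and 1 with higher values (12.9%, against 12.3% of all genes), and 0 mitochondrial members. For 24 of the 85 (28.2%), all OxLDL libraries were below all Control libraries, against 11.6% of all genes tested, and for 0 of the 85 they were all above, against 10.1%. By complex, all 15 subunits of complex V were below 0 (median -0.29), as were all 4 of complex II (-0.25), 11 of 12 of complex IV (-0.24), 7 of 8 of complex III (-0.17) and 29 of 36 of complex I (-0.20). The nuclear members of a library tended to deviate together, as in the Control library of Slc7a7-/- mouse 1, where 59 of 71 were above their group mean. Counts of nuclear members, here and in the other comparisons, are therefore not independent observations. The nuclear median kept its sign with each library left out in turn (-0.25 to -0.15). The summed macrophage markers of the same libraries were also lower, at 17458 to 20852 CPM in Control medium and 12338 to 14371 CPM with OxLDL, and their part in the result was not tested. The mitochondrial median was 0.005 without the OxLDL library of mouse 2. The mitochondrial median was -0.03 when mouse was a block and Slc7a7-/- mouse 2 was left out.

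The treatments of a genotype are paired by mouse, and a fit with mouse as a block changed the call in this comparison. It called 5 of 85 nuclear members, all with lower values with OxLDL, a smaller share than the 7.18% of all genes called. A fit of only the libraries compared called 3 of them, Atp5o, Cox7a2l and Atp5k, again a smaller share than the 6.62% of all genes. Members were thus not called more often than genes in general. Without Slc7a7-/- mouse 1 the blocked fit called 0 members, without mouse 2 it called Atp5o and without mouse 3 Atp5k. For these fits the share of all genes called is not given here. The fit of the 6 groups called 0 of the 5 members. At an unadjusted p under 0.05, the blocked fit had 17 nuclear members lower and 1 higher, where the fit of the 6 groups had 10 and 1. The share of all genes at that threshold in the blocked fit is not given here. Over all genes, calls after adjustment rose from 285 to 882 between these fits, so the rise is not particular to the members.

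Atp5a1, the alpha subunit of the catalytic F1 head of ATP synthase, was at 423, 422 and 418 CPM in the Control libraries of Slc7a7-/- mice 1 to 3 and at 328, 339 and 357 CPM with OxLDL. All OxLDL libraries were lower, and AcLDL libraries (378, 368 and 340 CPM) were also below Control. Its log2 fold change for OxLDL was -0.30 ± 0.13 (SE, adjusted p = 0.343 by edgeR), and -0.30 ± 0.087 with mouse as a block (adjusted p = 0.0246). Slc7a7+/+ libraries had 481, 414 and 415 CPM in Control medium and 466, 347 and 376 CPM with OxLDL, which overlap.

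Atp5o, the OSCP subunit that links the F1 head to the peripheral stalk, was at 94.1, 80.5 and 106 CPM in Control medium and at 69.0, 73.9 and 61.3 CPM with OxLDL in Slc7a7-/- cells. Each mouse was lower with OxLDL, least so mouse 2. The log2 fold change was -0.46 ± 0.19 (adjusted p = 0.297 by edgeR) and -0.46 ± 0.14 with mouse as a block (adjusted p = 0.0352). In Slc7a7+/+ cells the values were 130, 84.5 and 96.9 CPM in Control medium and 108, 56.2 and 68.5 CPM with OxLDL, lower in each mouse (log2 fold change -0.44 ± 0.19, adjusted p = 0.432 by edgeR). With the OxLDL library of Slc7a7+/+ mouse 1 left out, this became -0.72 ± 0.18 (adjusted p = 0.049 by edgeR), the only call among members in Slc7a7+/+ cells under any alternative.

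Atp5k, subunit e of the membrane part of ATP synthase, was at 49.4, 41.5 and 29.0 CPM in Control medium and 27.8, 22.6 and 23.1 CPM with OxLDL in Slc7a7-/- cells, a log2 fold change of -0.72 ± 0.32 (adjusted p = 0.348 by edgeR) and of -0.70 ± 0.20 with mouse as a block (adjusted p = 0.0217). Among members of at least 20 CPM on average it had the lowest fold change. Slc7a7+/+ mouse 1 had 47.3 CPM in Control medium and 58.2 CPM with OxLDL, whereas mice 2 and 3 had 22.8 to 28.4 CPM with either, so that the groups overlapped.

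Ndufv3, an accessory subunit of the NADH-binding module of complex I, was at 45.8, 40.9 and 52.9 CPM in Control medium and 28.6, 28.7 and 34.7 CPM with OxLDL in Slc7a7-/- cells. This gave -0.59 ± 0.23 on the log2 scale (adjusted p = 0.236 by edgeR) and -0.59 ± 0.19 with mouse as a block (adjusted p = 0.0466). In Slc7a7+/+ cells, OxLDL libraries spread from 29.6 to 68.1 CPM around Control values of 40.9, 37.0 and 32.8 CPM, and the log2 fold change was 0.30 ± 0.23. The genotype difference of these responses was -0.89 ± 0.32 (unadjusted p = 0.0112, adjusted p = 1 by edgeR).

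Cox7a2l, which is known for its role in joining complexes III and IV into supercomplexes, was at 140, 119 and 136 CPM in Control medium and 100, 101 and 91.9 CPM with OxLDL in Slc7a7-/- cells. The log2 fold change was -0.44 ± 0.17 (adjusted p = 0.244 by edgeR) and -0.43 ± 0.12 with mouse as a block (adjusted p = 0.0213). Slc7a7+/+ libraries had 169, 141 and 125 CPM in Control medium and 140, 95.7 and 143 CPM with OxLDL, which overlap.

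**Figure D4:**
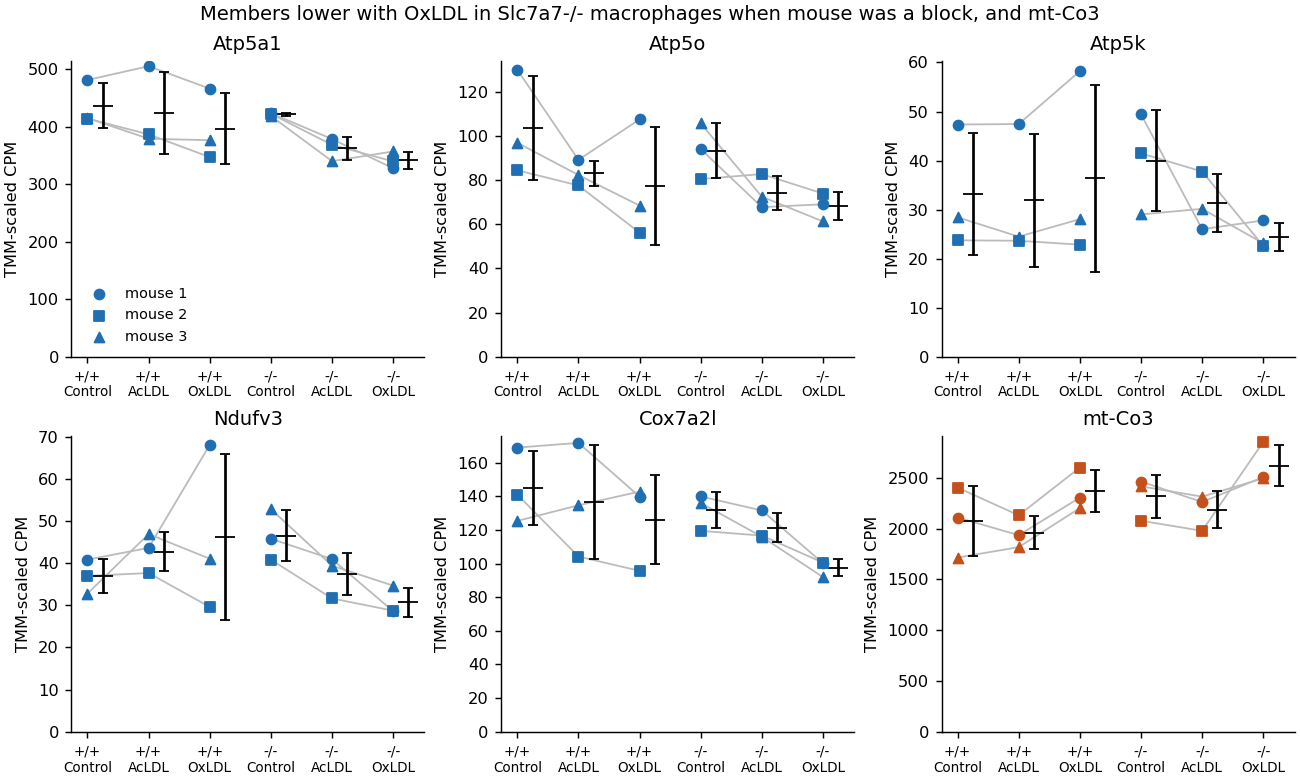
TMM-scaled CPM in each library of the 5 nuclear members called lower with OxLDL in Slc7a7-/- macrophages with mouse as a block, and of mt-Co3, with lines joining the libraries of a mouse and bars showing mean and SD (n = 3). For the 5 nuclear genes all OxLDL libraries of Slc7a7-/- mice lie below their Control libraries, and for mt-Co3 they lie above.

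Beyond these, Ndufs4, an accessory subunit of complex I, had the smallest p of the members in the fit of the 6 groups, with 43.3 CPM with OxLDL and 59.8 CPM in Control medium (log2 fold change -0.47 ± 0.17, adjusted p = 0.188 by edgeR), followed by Cox6a1 with 55.9 and 75.9 CPM (-0.43 ± 0.15). Sdha, the flavoprotein of complex II, had 139 and 171 CPM (-0.29 ± 0.11). On the other side, mt-Co3, a core subunit of complex IV, was at 2506, 2852 and 2495 CPM with OxLDL and 2462, 2077 and 2415 CPM in Control medium, with no overlap but small distances in mice 1 and 3 (0.18 ± 0.15), and mt-Nd3 had the highest fold change of the members with at least 20 CPM (0.20 ± 0.14).

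With AcLDL in Slc7a7-/- macrophages, nuclear members were also mostly below 0, 66 of 85, with a median of -0.14. This comparison uses the same Control libraries as that with OxLDL. All AcLDL libraries were below all Control libraries for 16 of the 85 (18.8%), against 9.37% of all genes. Unadjusted, 4 nuclear members were lower and 0 higher (4.71%, against 7.53% of all genes), and 0 of 13 mitochondrial members passed either way. With mouse as a block, 12 nuclear members were lower and 1 higher unadjusted, and 0 were called after adjustment. The share of all genes at that threshold in the blocked fit is not given here. The summed macrophage markers, at 14860 to 17366 CPM with AcLDL, were also below Control, and their part was not tested. The lowest fold changes were those of Ndufs3, a core subunit of complex I (-0.54 ± 0.23), and Ndufc1 (-0.48 ± 0.24), and the highest those of Ndufa3 (0.23 ± 0.24) and Cox7c (0.31 ± 0.17). Of the mitochondrial members, 12 of 13 were below 0 with a median of -0.09, so that here the medians of both genomes had the same sign.

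In Slc7a7+/+ macrophages with AcLDL, 52 of 85 nuclear members were below 0 (median -0.06), and 2 were lower and 0 higher at an unadjusted p under 0.05 (2.35%, against 7.33% of all genes). Ndufa4 (-0.52 ± 0.27) and Atp5d (-0.47 ± 0.18), the delta subunit of the F1 head, had the lowest and Sdhd (0.29 ± 0.21) and Ndufb2 (0.34 ± 0.26) the highest fold changes. All 13 mitochondrial members were below 0, with a median of -0.16 and 0 past an unadjusted p of 0.05. Without Slc7a7+/+ mouse 1 the medians were -0.04 and -0.11. With OxLDL, 48 of 85 nuclear members were below 0 (median -0.03), 3 were lower and 0 higher unadjusted (3.53% and 0%, against 5.35% lower and 4.68% higher of all genes), and 10 of 13 mitochondrial members were above 0 (median 0.06, 0 past the unadjusted threshold). Ndufa4 (-0.62 ± 0.26) and Atp5o were lowest and Ndufv3 and Ndufab1 (0.37 ± 0.19) highest. Without Slc7a7+/+ mouse 1, 64 of 85 nuclear members were below 0 with OxLDL (median -0.13), the mitochondrial median was 0.18, and 0 members were called. The direction of the nuclear median depended on single libraries. It was -0.26 without the OxLDL library of mouse 1, 0.11 without the Control library of mouse 1 and 0.13 without the OxLDL library of mouse 2. With mouse as a block, 7 nuclear members were lower and 0 higher unadjusted with AcLDL, and 6 lower and 1 higher with OxLDL. Of the mitochondrial members, 2 were then lower with AcLDL and 1 higher with OxLDL, and 0 members were called. The share of all genes past the unadjusted threshold with the block is not given here. Over all genes the block also gave more calls after adjustment in both comparisons.

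OxLDL against AcLDL gave fitted log2 fold changes above 0 for all 13 mitochondrial members in both genotypes, though not every mouse rose. The median log2 fold change was 0.21 in Slc7a7+/+ and 0.15 in Slc7a7-/- cells. In the fit of the 6 groups, 1 of 13 (7.69%) passed an unadjusted p of 0.05 in each, against 5.14% and 5.55% of all genes. These were mt-Nd6 in Slc7a7+/+ (0.29 ± 0.13) and mt-Nd3 in Slc7a7-/- cells (0.29 ± 0.14). With mouse as a block, 9 of 13 passed it in Slc7a7+/+ and 3 of 13 in Slc7a7-/- cells, all higher, and 0 were called after adjustment. The share of all genes past the unadjusted threshold in the blocked fit is not given here. The OxLDL libraries were all above the AcLDL libraries for 4 of 13 in Slc7a7+/+ cells, mt-Cytb, mt-Co3, mt-Nd3 and mt-Nd6 (30.8%, against 4.76% of all genes), and for 2 of 13 in Slc7a7-/- cells, mt-Co3 and mt-Nd3 (15.4%, against 6.48%). Except for mt-Nd6 on the opposite strand, the 13 genes share their primary transcripts and are not independent. Without the OxLDL library of Slc7a7+/+ mouse 2, the Slc7a7+/+ median was 0.08 and mt-Nd1, mt-Nd2, mt-Co1 and mt-Atp6 were at -0.02, -0.07, -0.02 and -0.03. Without mouse 1 of that genotype the median was 0.28. In Slc7a7-/- cells it was 0.07 without the OxLDL library of mouse 2, and the mitochondrial share changed from AcLDL to OxLDL by -0.21, 0.71 and 0.18 percentage points in mice 1 to 3. The same change was -0.007, 0.48 and 0.24 percentage points in Slc7a7+/+ mice 1 to 3. In single libraries, mt-Co3 of Slc7a7+/+ mice was at 1935, 2131 and 1817 CPM with AcLDL and 2304, 2601 and 2201 CPM with OxLDL, higher in each mouse (0.27 ± 0.15). In Slc7a7-/- mice it was at 2261, 1978 and 2314 CPM with AcLDL and 2506, 2852 and 2495 CPM with OxLDL (0.26 ± 0.15), again higher in each. For mt-Co1 the Slc7a7-/- values were 7488, 5817 and 6486 CPM with AcLDL and 6461, 7836 and 7000 CPM with OxLDL, so that mouse 1 was lower and the groups overlapped.

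Nuclear members did not share that direction. Their median was 0.01 in Slc7a7+/+ cells, with 1 higher and 0 lower unadjusted (1.18%, against 5.14% of all genes). In Slc7a7-/- cells the median was -0.07, with 0 higher and 2 lower (2.35%, against 5.55% of all genes). Without Slc7a7+/+ mouse 1 the Slc7a7+/+ median was -0.07. In Slc7a7+/+ cells, Cox5a (-0.31 ± 0.21) and Sdhc (-0.26 ± 0.18) had the lowest and Atp5g3 (0.32 ± 0.23) and Atp5d (0.43 ± 0.18) the highest fold changes. In Slc7a7-/- cells these were Cox7c (-0.51 ± 0.18), a small subunit of complex IV, with Ndufa3 (-0.50 ± 0.25) at the low end and mt-Nd3 with Ndufs5 (0.44 ± 0.29) at the high end, and the OxLDL libraries were all below the AcLDL libraries for 8 of 85 nuclear members (9.41%, against 6.93% of all genes).

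**Figure D5:**
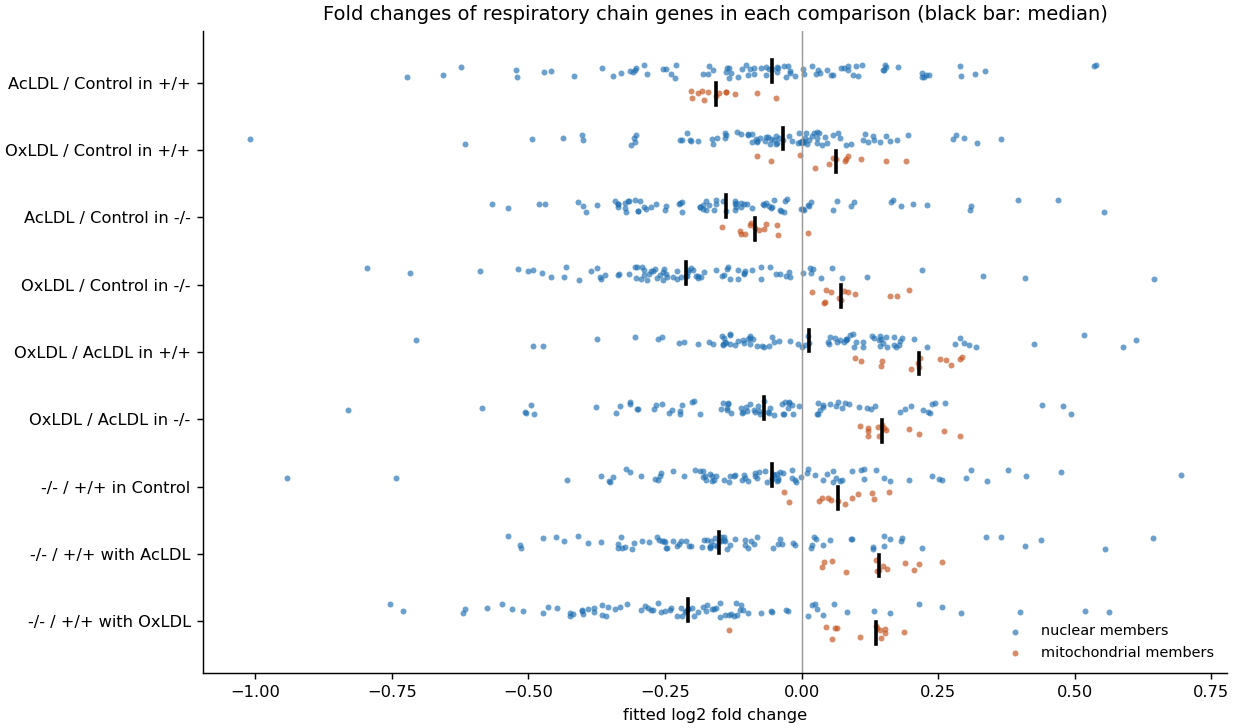
Fitted log2 fold change of each of the 85 nuclear and 13 mitochondrial members in 9 comparisons between groups, with +/+ and -/- for the Slc7a7 genotype and a black bar at the median of each set. Nuclear and mitochondrial medians have opposite signs for OxLDL against Control in -/- (-0.21 and 0.07) and +/+ cells (-0.03 and 0.06) and for OxLDL against AcLDL in -/- cells (-0.07 and 0.15). They also do between genotypes in Control medium (-0.06 and 0.07), with AcLDL (-0.15 and 0.14) and with OxLDL (-0.21 and 0.14). Without +/+ mouse 1 the nuclear medians between genotypes are 0.07, -0.03 and 0.01, in the same order.

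Between genotypes, nuclear members were lower and mitochondrial members higher in Slc7a7-/- cells by their medians, but the nuclear medians were near 0 or reversed without Slc7a7+/+ mouse 1. That mouse was chosen after its high nuclear values were seen, so leaving it out raises these medians by its choice. Slc7a7+/+ mouse 2 deviated the other way (-0.17, -0.19 and -0.36), and no fit left out all of its libraries. With OxLDL the nuclear median was -0.21, with 70 of 85 below 0, and the mitochondrial median was 0.14, with 12 of 13 above 0. Of the nuclear members, 10 were lower and 0 higher at an unadjusted p under 0.05 (11.8%, against 4.78% of all genes), and 8 had no overlap in the lower direction (9.41%, against 4.80% of all genes). Without Slc7a7+/+ mouse 1 the nuclear median was 0.01, with 45 of 85 above 0 and 2 lower and 0 higher unadjusted, and without its OxLDL library alone it was 0.00. For the fit without that mouse, the share of all genes at this threshold is not given here. The mitochondrial median was then 0.06 without that mouse. Cox7c had the smallest p (0.00347, adjusted p = 0.933 by edgeR), with 48.8, 37.6 and 33.0 CPM in Slc7a7-/- and 67.2, 50.6 and 59.3 CPM in Slc7a7+/+ libraries, which do not overlap (-0.58 ± 0.18). Of the 31-base words of Cox7c, 24.5% occur in other annotated genes, and 0 members share over 20% of theirs with genes listed in the table. Ndufa5 (-0.75 ± 0.35) and Ndufs8 (-0.73 ± 0.26), subunits of complex I, were lowest, and mt-Nd2 (0.19 ± 0.16) and Ndufa4 (0.26 ± 0.27) highest.

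With AcLDL, the nuclear median between genotypes was -0.15, with 63 of 85 below 0, and -0.03 without Slc7a7+/+ mouse 1. Unadjusted, 4 nuclear members were lower and 0 higher (4.71%, against 4.89% of all genes). Sdhd, a membrane anchor of complex II (-0.54 ± 0.21), and Ndufa6 (-0.52 ± 0.21) were lowest, and mt-Nd5 (0.26 ± 0.16) and Atp5g1 (0.36 ± 0.31) highest. All 13 mitochondrial members were above 0, with a median of 0.14, which was 0.15 without that mouse, and 0 had an unadjusted p under 0.05. In Control medium, the medians were -0.06 for nuclear and 0.07 for mitochondrial members, with 1 nuclear member lower and 1 higher unadjusted (1.18% each, against 1.90% lower and 2.10% higher of all genes). Without Slc7a7+/+ mouse 1 the nuclear median was 0.07, the opposite sign, and the mitochondrial median 0.09. Ndufa3 (-0.43 ± 0.24) and Ndufa5 (-0.35 ± 0.33) were lowest and Ndufab1, the mitochondrial acyl carrier protein (0.38 ± 0.18), and Ndufb2 (0.41 ± 0.25) highest.

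The test of the genotype difference in response called 0 members. For OxLDL the nuclear median was -0.18, with 64 of 85 below 0, 2 lower and 0 higher unadjusted (2.35%, against 2.75% of all genes), and it was 0.07 without the OxLDL library of Slc7a7+/+ mouse 1 and -0.07 without that mouse. Ndufv3 and Atp5k (-0.83 ± 0.46) were lowest and Uqcr11 (0.20 ± 0.35) and Ndufa4 (0.47 ± 0.37) highest. The mitochondrial median was 0.02, and it turned to -0.07 without that mouse, with 9 of 13 below 0. For AcLDL, the medians were -0.07 and 0.07, and -0.10 and 0.04 without Slc7a7+/+ mouse 1. Unadjusted, 1 nuclear member was lower and 1 higher (2.35%, against 2.66% of all genes), and Ndufc1 (-0.71 ± 0.35), Ndufb2 (-0.63 ± 0.35), Ndufa3 (0.47 ± 0.34) and Atp5d (0.44 ± 0.25) were at the ends. A difference between the genotypes in the OxLDL response of single members was thus not detected in 3 mice per genotype.

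Other mitochondrial genes were read from lists. The mitochondrial rRNAs, 2 genes, had no row in the table and were not analysed here. Of 25 genes for mitochondrial transcription and RNA handling, 10 for mitochondrial DNA replication, 11 tested regulators of mitochondrial biogenesis, 22 tested electron carriers and other chain proteins, 14 of the TCA cycle, 8 tested genes of mitophagy and hypoxia and 78 mitochondrial ribosomal proteins, 0 passed in any comparison. Of 41 assembly factors outside the rule, 1 passed in 1 comparison, a share near the 2.32% of all genes called there. This was Cox19, a copper-handling assembly factor of complex IV, which fell with OxLDL in Slc7a7-/- cells from 13.3 ± 3.15 to 5.05 ± 0.424 CPM (SD, n = 3, log2 fold change -1.38 ± 0.32, adjusted p = 0.0184 by edgeR).

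In that comparison, the list medians were -0.20 for the TCA cycle, -0.17 for mitophagy and hypoxia, -0.07 for the mitochondrial ribosome, -0.04 for assembly factors and -0.03 for biogenesis regulators, and 0.14, 0.14 and 0.04 for transcription and RNA handling, DNA replication and electron carriers. Cs, the citrate synthase at the entry of the TCA cycle, had 109 ± 4.73 CPM with OxLDL and 139 ± 5.12 CPM in Control medium (-0.36 ± 0.14, adjusted p = 0.235 by edgeR), and Dlst had -0.33 ± 0.13. Hif1a, the oxygen-sensitive transcription factor, had 118 ± 0.469 and 158 ± 12.3 CPM (-0.43 ± 0.13, adjusted p = 0.0905 by edgeR), and Pink1, the kinase that marks damaged mitochondria, -0.40 ± 0.18. Of the mitochondrial ribosome, Mrpl52 had -0.81 ± 0.22 and Mrpl38 -0.61 ± 0.27. Slirp and Tefm, which act on mitochondrial RNA, had -0.76 ± 0.34 and -0.67 ± 0.43. For DNA replication, Samhd1 had -0.43 ± 0.18 and Dguok 0.56 ± 0.26, and among regulators Sirt1 had 0.24 ± 0.18 and Pprc1 -0.21 ± 0.16. Cyc1, the cytochrome c1 of complex III that the symbol rule leaves out, had -0.44 ± 0.25 and Higd2a 0.47 ± 0.29, and Cox15, which makes heme A for complex IV, had -0.52 ± 0.21. None of these except Cox19 passed the test.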

How the data were processed

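RNA was sequenced from 18 macrophage cultures, 3 mice in each of 6 groups, with a stranded total RNA kit and single-end reads. Per the labels and the methods, reads were trimmed, aligned with STAR to mm10 and quantified with Salmon, and the values deposited by the authors are estimated counts per gene, not normalized (5.85 to 8.10% were not whole). Here they were rounded, and genes were kept with edgeR's filter at a minimum of 2 counts and 10 in total, which left 12290. A quasi-likelihood model of all 6 groups was fitted with TMM scaling (edgeR 4.0.16, limma 3.58.1, R 4.3.3), with DESeq2 1.42.0 as an alternative, and p-values were adjusted by Benjamini-Hochberg over all genes. The procedure was tested on simulated counts that held no mouse effect. The outcome is not given here, and it does not vouch for the calls with mouse as a block. Members, lists and tests were chosen with earlier results of these data known. Named were all mitochondrial members, any member called, in each comparison the 2 lowest and 2 highest fold changes among members averaging 20 CPM or more, the highest and lowest nuclear subunit of each complex, tissue isoforms, and in each list the called genes or the 2 of smallest p. Other members singled out were chosen after their values were seen. Libraries of a genotype are paired by the mouse in the labels. Deviations of same-mouse libraries correlated at 0.0551 to 0.293, over 0.1 in 14 of 18 pairs. Alternatives were other scalings and filters, the block, and leaving out libraries.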

Additional observations from a re-analysis of the deposited data

Results flagged for a closer look

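Of 43 relations examined, 1 had every mouse of a genotype moving one way and every mouse of the other genotype the opposite way. For a relation chosen without regard to its values, chance gives this in 3.125% of cases. The case found, Ndufc1, was named for its low value of the same genotype difference in response. That share therefore does not apply to it, and 1 case among 43 relations was not tested against chance. Ndufc1, an accessory subunit of complex I, changed from Control medium to AcLDL by 4.31, 0.074 and 8.10 CPM in the Slc7a7+/+ mice and by -9.66, -4.66 and -9.42 CPM in the Slc7a7-/- mice. The genotype difference in its response was -0.712597 on the log2 scale (SE 0.351, unadjusted p = 0.0542, Benjamini-Hochberg adjusted p = 1 by edgeR), so it did not pass.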

How the results depend on the processing

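With the mouse as a replicate block, the pairing changed the call for OxLDL against Control in Slc7a7-/- cells only, from 0 to 5 nuclear members, and it changed no other member call. There the count was 3 with only the libraries compared, and, in fits chosen after seeing the data, 1 with Slc7a7-/- mouse 2 and 1 with mouse 3 left out of the blocked fit. Over all genes the block called 882 against 285 in that comparison, 539 against 165 for OxLDL and 265 against 58 for AcLDL in Slc7a7+/+ cells, 307 against 64 for AcLDL in Slc7a7-/- cells, and 90 against 1 and 169 against 8 for OxLDL against AcLDL in the respective genotypes. Without a filter on low counts, 176, 337, 188 and 491 genes were called for AcLDL and OxLDL in Slc7a7+/+ and then in Slc7a7-/- cells. Between genotypes a replicate number is shared but no mouse, so there the block was that number and not the mouse. Leaving out 1 library at a time, nuclear members called for OxLDL in Slc7a7+/+ cells ranged from 0 to 1 and their median from -0.26 to 0.13, the median for OxLDL against AcLDL in Slc7a7+/+ cells from -0.21 to 0.18, between genotypes with OxLDL from -0.405 to 0.0023 (0.0052 with Slc7a7+/+ mouse 1 left out, chosen after seeing the data), and the genotype difference in the OxLDL response from -0.36 to 0.074 for nuclear and from -0.048 to 0.19 for mitochondrial members. With Gm26917 left out of the total, mitochondrial shares in Slc7a7-/- libraries were 2.36, 2.34 and 2.61% and nuclear shares 0.615, 0.577 and 0.555% in Control medium, with AcLDL and with OxLDL. Scaling by library size alone turned the nuclear median for OxLDL against AcLDL in Slc7a7+/+ cells to -0.01. The cause of these shifts was not tested. Each group had 3 mice. The p-values of the fit of the 6 groups set a difference against a spread that was estimated from all 18 libraries and moderated across genes. Members of few counts had wide intervals.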
